A study of Mus musculus with 12 samples.

Results

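The genes of prostaglandin synthesis and of the PGE2 receptors were followed through RNA-seq data of a pair of mouse striatal cell lines. The 9 genes are Pla2g4a, Ptgs1, Ptgs2, Ptges, Ptgis, Ptgds, Hpgd, Ptger2 and Ptger4, found by gene name in a table of 29428 genes. Of these 9 genes, 8 passed the filter on low values (at least 0.5 TPM in at least 3 libraries), as did 16127 genes in all, and Ptger2 did not. TPM is a relative transcript level scaled for transcript length and library total. Hpgd passed only through the Q111-C libraries, and Ptgds and Ptger4 only through STHdhQ7 libraries, so counts over these 8 genes are a description and nothing more.

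STHdhQ7 and STHdhQ111 are immortalized lines, named for the normal or expanded glutamine tract in huntingtin (7 or 111 repeats), the protein affected in Huntington's disease. Each was either left nontreated (Q7-C and Q111-C) or given an inflammatory challenge of murine IFNγ at 100 ng/mL together with LPS at 5 μg/mL, which lasted 24 h (groups Q7-T and Q111-T). Each of the 4 groups had 3 libraries. Each genotype is represented by 1 line, so genotype and line cannot be told apart, and IFNγ and LPS were given together. The study speaks of biological replicates and does not state separate cultures, so p-values measure the spread between these libraries, which may be technical.

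Prostaglandins are short-lived lipid signals of inflammation, pain and blood flow. Cytosolic phospholipase A2 (Pla2g4a) frees arachidonic acid from membranes, the cyclooxygenases Ptgs1 (mostly constitutive) and Ptgs2 (inducible) turn it into PGH2, and terminal synthases make the final products: PGE2 by Ptges, prostacyclin by Ptgis and PGD2 by Ptgds. Hpgd oxidizes and so inactivates prostaglandins, and Ptger2 and Ptger4 are the PGE2 receptors EP2 and EP4, which raise cAMP. In the brain, Ptgs2 and Ptges are known as genes induced by inflammatory signals.

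Estimated counts summed to between 57505990 and 96417834 per library. Low counts fell on multiples of 4 more often than on the even numbers between them (by a factor of 1.39 to 1.81), so 1 read pair was taken to stand for about 4 counts. The cell type label names a striatal neuronal line, but Gad1 was at 0 in every Q7-C, Q7-T and Q111-C library and Snap25 in every Q7-C, Q7-T and Q111-T library. Map2 and Tubb3 were the neuronal markers at or above a mean of 0.5 TPM in all groups, and Ppp1r1b reached that level in Q111-C alone. All 7 mesenchymal markers passed that level in every group, with a summed 3630 to 4850 TPM in nontreated libraries, 3310 to 3760 TPM in Q7-T and 1550 to 1660 TPM in Q111-T. Summed neuronal markers were higher after treatment in both lines, at 58.7 to 86.3 TPM in Q7-T against 22.6 to 27.7 TPM in Q7-C and at 29.6 to 33.5 TPM in Q111-T against 10 to 12 TPM in Q111-C. Summed astrocyte markers, of which Gja1 and Slc1a3 passed that level in every group, were at 15.6 to 41.7 TPM in STHdhQ7 and 70 to 89.2 TPM in STHdhQ111 libraries. The part of these marker sums in the differences of treatment and line was not tested. Macrophage or microglia markers, of which 6 of 9 are in the table, summed to at most 0.567 TPM in any library, and none reached a mean of 0.5 TPM in any group. Q7-T replicate 2 and Q7-C replicate 1 stood apart, with a median TPM over the genes tested of 4.02 and 5.36 against 7.22 to 9.82 in the other libraries, and Q7-T replicate 2 was nearest to Q7-C replicate 1.

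Coordinates are from the GRCm38 mouse genome. Pla2g4a (chr1:149829618-149961290, minus strand) and Ptgs2 (chr1:150100031-150108227, plus strand) are neighbours, 138740 bp apart. Ptgs1 (chr2:36230426-36252272, plus strand), Ptges (chr2:30889471-30903297, minus strand), Ptgis (chr2:167191805-167240604, minus strand) and Ptgds (chr2:25466709-25470046, minus strand) lie on chromosome 2. Hpgd (chr8:56294585-56321043, plus strand), Ptger2 (chr14:44988195-45003820, plus strand) and Ptger4 (chr15:5206661-5244172, minus strand) lie on chromosomes of their own. Pla2g4a, Ptgs1, Ptgis, Ptger2 and Ptger4 overlap other annotated genes on the opposite strand, for Ptger4 the coding gene Ttc33, and Hpgd overlaps the transcript Gm45540 on its own strand, and how the counting used strand is not given in the sources used here.

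Promoter windows of 250 bases before to 50 bases after the annotated start were taken from RefSeq (GRCm38.p6), which matched 8 of the 9 genes. Those of the genes with the largest changes, Ptgs2, Ptges and Hpgd, are shown with that of Ptgs1, the other cyclooxygenase, 5′ to 3′ on the strand of the gene. Capitals mark matches on either strand to any of 7 motifs.
Ptgs2 (chr1:150099781-150100080, plus strand): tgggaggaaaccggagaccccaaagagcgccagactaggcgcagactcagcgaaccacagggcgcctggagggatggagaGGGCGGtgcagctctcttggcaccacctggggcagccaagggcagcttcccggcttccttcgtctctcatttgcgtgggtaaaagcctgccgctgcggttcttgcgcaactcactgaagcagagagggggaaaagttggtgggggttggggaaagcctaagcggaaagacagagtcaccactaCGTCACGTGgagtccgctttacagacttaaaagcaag
Ptgs1 (chr2:36230176-36230475, plus strand): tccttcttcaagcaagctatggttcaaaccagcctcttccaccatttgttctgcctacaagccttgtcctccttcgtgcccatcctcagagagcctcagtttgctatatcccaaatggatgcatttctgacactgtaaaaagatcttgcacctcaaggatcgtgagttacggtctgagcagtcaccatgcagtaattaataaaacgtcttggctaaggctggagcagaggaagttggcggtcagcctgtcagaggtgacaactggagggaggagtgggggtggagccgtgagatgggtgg
Ptges (chr2:30903248-30903547, minus strand): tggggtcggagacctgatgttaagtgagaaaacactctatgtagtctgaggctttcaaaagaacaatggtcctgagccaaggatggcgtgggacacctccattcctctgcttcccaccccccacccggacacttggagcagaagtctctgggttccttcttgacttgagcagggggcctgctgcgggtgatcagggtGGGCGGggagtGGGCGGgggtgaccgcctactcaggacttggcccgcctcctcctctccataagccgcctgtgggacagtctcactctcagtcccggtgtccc
Hpgd (chr8:56294302-56294601, plus strand): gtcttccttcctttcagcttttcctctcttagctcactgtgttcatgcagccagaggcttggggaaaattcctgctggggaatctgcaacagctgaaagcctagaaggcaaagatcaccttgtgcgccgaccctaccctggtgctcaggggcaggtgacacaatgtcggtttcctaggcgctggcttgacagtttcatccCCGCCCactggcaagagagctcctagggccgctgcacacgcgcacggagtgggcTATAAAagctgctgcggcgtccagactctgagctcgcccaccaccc

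The motifs searched were the TATA box (TATAAA), GC box (GGGCGG), cAMP response core (TGACG), E-box (CACGTG), AP-1 site (TGANTCA), interferon-stimulated element (GAAANNGAA) and the NF-kB decamer. Among all 32851 RefSeq promoter windows of this length, 13.6% hold the TATA box letters, 35.7% the GC box, 20.8% the cAMP response core, 7.15% the E-box, 7.81% the AP-1 site, 8.56% the interferon-stimulated element and 4.51% the NF-kB decamer. Among the windows of 10625 genes tested, 1 window a gene, the shares were 7.43%, 63.9%, 31.6%, 10.1%, 5.22%, 7.12% and 5.19% in the same order, so a GC box was in most of them. The Ptgs2 window holds a GC box that begins 170 bases before the start, and a cAMP response core on the minus strand that begins 13 bases after it and overlaps an E-box. The Ptgs1 window holds none of the 7 motifs. The Ptges window holds GC boxes 53 and 42 bases before the start, and the Hpgd window a GC box 50 bases before and a TATA box 4 bases after the RefSeq start. The gene start of Hpgd in the expression table lies 33 bases downstream of the RefSeq start, and measured from it the TATA box begins 29 bases before the start and the GC box 83 bases before it. For the other 3 genes both starts are the same base. A match is a description of letters and not of binding, and the interferon-stimulated and NF-kB letters were in none of these 4 windows.

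The cyclooxygenase messages also differ at their other end. The AUUUA pentamer, an element known from messages with short lives, occurs 14 times in the longest annotated 3′ untranslated region of Ptgs2 (2448 bases) and 0 times in that of Ptgs1 (924 bases). Of 12552 tested genes with such a region, 2.66% hold it at least as often as Ptgs2, by a count not scaled for the length of the region. It occurs 0 times in Ptges, Ptgis and Ptgds, 4 times in Pla2g4a and in Hpgd, 5 times in Ptger4 and 6 times in Ptger2. Per kilobase of the region it occurs 5.72 times in Ptgs2 and 8.97 times in Pla2g4a. The values per kilobase are 4.76 in Hpgd, 4.05 in Ptger4 and 3.28 in Ptger2.

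**Figure D1:**
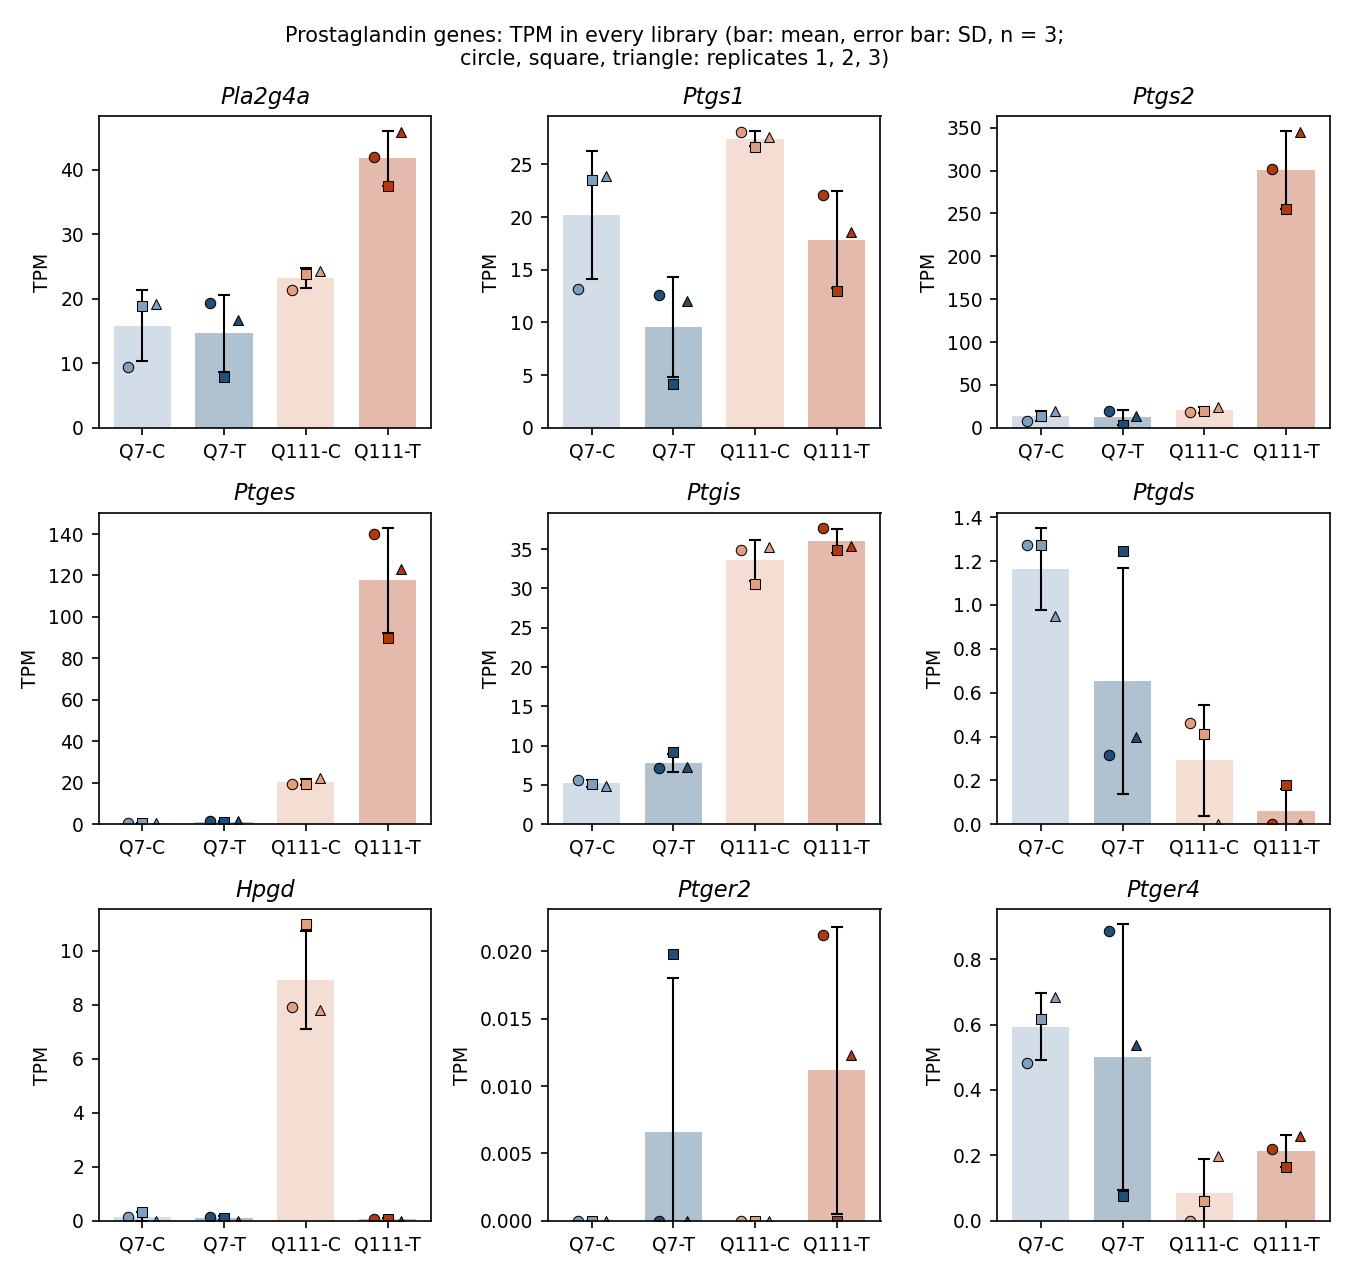
TPM of the 9 prostaglandin genes (y axis, linear and from 0, with its own scale for each gene) in Q7-C, Q7-T, Q111-C and Q111-T; bars are means, error bars SD (n = 3) and points single libraries. Ptgs2 is at 255 to 345 TPM in Q111-T and at most 24.8 TPM elsewhere, and Hpgd is at 7.80 to 11.0 TPM in Q111-C and at most 0.319 TPM elsewhere.

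The supply of arachidonic acid was considered first. Pla2g4a read 9.48, 18.9 and 19.2 TPM in Q7-C, 19.3, 7.85 and 16.7 TPM in Q7-T, 21.4, 23.9 and 24.3 TPM in Q111-C, and 42.0, 37.4 and 45.9 TPM in Q111-T. All Q111-T libraries lay above all others, and the STHdhQ7 groups overlapped. After treatment Pla2g4a was 2.85 ± 1.21-fold higher in STHdhQ111 than in STHdhQ7 cells by mean TPM, and edgeR's quasi-likelihood test, adjusted over all genes tested by Benjamini-Hochberg, gave a log2 fold change of 1.18 ± 0.18 (SE, adjusted p = 4.33e-04). Within STHdhQ111 cells the edgeR log2 fold change was 0.95 ± 0.18 (adjusted p = 0.00317), past the test and just under the 2-fold that a call also required. In STHdhQ7 cells it was 0.04 ± 0.18 (edgeR adjusted p = 0.946), and the responses of the lines did not differ past the threshold (edgeR interaction 0.90 ± 0.25, adjusted p = 0.0643). Without Q7-C replicate 1 this interaction was called (1.06, edgeR adjusted p = 0.0159), as it was without Q7-T replicate 1 (1.02, adjusted p = 0.046).

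At the cyclooxygenase step, treatment changed the inducible gene in 1 line and gave no call for the constitutive one. Ptgs1 read 13.2, 23.5 and 23.9 TPM in Q7-C, 12.6, 4.14 and 12.03 TPM in Q7-T, 28.0, 26.7 and 27.6 TPM in Q111-C, and 22.1, 12.9 and 18.6 TPM in Q111-T. In each line the treated libraries were below the nontreated ones in TPM. The edgeR log2 fold change on treatment was -0.95 ± 0.23 in STHdhQ7 cells (adjusted p = 0.0343, under 2-fold) and -0.54 ± 0.23 in STHdhQ111 cells (adjusted p = 0.139), with an interaction of 0.41 ± 0.32 (adjusted p = 0.526). Ptgs1 met no call in any of the 5 comparisons, but in Q7-T vs. Q7-C it did without Q7-C replicate 1 (-1.07, edgeR adjusted p = 0.0312), Q7-T replicate 1 (-1.08, adjusted p = 0.0418) or Q7-T replicate 3 (-1.09, adjusted p = 0.0432).

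Ptgs2 rose on treatment in STHdhQ111 cells. It read 7.82, 14.1 and 19.8 TPM in Q7-C, 19.7, 3.35 and 13.4 TPM in Q7-T, 18.1, 19.3 and 24.8 TPM in Q111-C, and 302, 255 and 345 TPM in Q111-T. Both STHdhQ7 groups and Q111-C covered one low range, and every Q111-T library was far above it. Mean Ptgs2 was 14.5 ± 3.31-fold higher in Q111-T than in Q111-C, and the edgeR log2 fold change was 3.95 ± 0.40 (adjusted p = 3.50e-05). Against Q7-T it was 4.37 ± 0.41 (edgeR adjusted p = 1.42e-05).

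In STHdhQ7 cells Ptgs2 gave an edgeR log2 fold change of -0.10 ± 0.36 (adjusted p = 0.939), and its sign turned without Q7-T replicate 2 (0.26) or without Q7-C replicate 3 (0.13). Between nontreated lines it was 0.31 ± 0.36 (edgeR adjusted p = 0.605). The difference of responses was itself called, with an edgeR interaction of 4.05 ± 0.53 (adjusted p = 0.00138), and stayed between 3.68 and 4.47 when any single library was left out. The summed level of both cyclooxygenases was 34.1 ± 11.7 TPM in Q7-C, 21.7 ± 12.8 TPM in Q7-T, 48.2 ± 3.69 TPM in Q111-C and 319 ± 48.2 TPM in Q111-T (mean ± SD, n = 3).

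Within a library, the share of Ptgs2 in this sum does not depend on how libraries are scaled. For STHdhQ7 cells it was 37.3%, 37.5% and 45.3% without treatment, and 61.1%, 44.7% and 52.6% after it. For STHdhQ111 cells it was 39.3%, 42.0% and 47.3% without treatment, and 93.2%, 95.2% and 94.9% after it. Ptgs1 thus made up the larger share in all nontreated libraries and a minor one in Q111-T. Q111-T did not overlap Q111-C or Q7-T (exact two-sided permutation p = 0.1 for both, the smallest that 3 libraries against 3 can give). Q7-T and Q7-C overlapped (exact permutation p = 0.2). The ratio of Ptgs1 to Pla2g4a was 1.24 to 1.39 in Q7-C against 0.527 to 0.719 in Q7-T, and 1.12 to 1.31 in Q111-C against 0.346 to 0.525 in Q111-T. The treated libraries had the lower ratio in both lines, without overlap (exact permutation p = 0.1 for both).

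**Figure D2:**
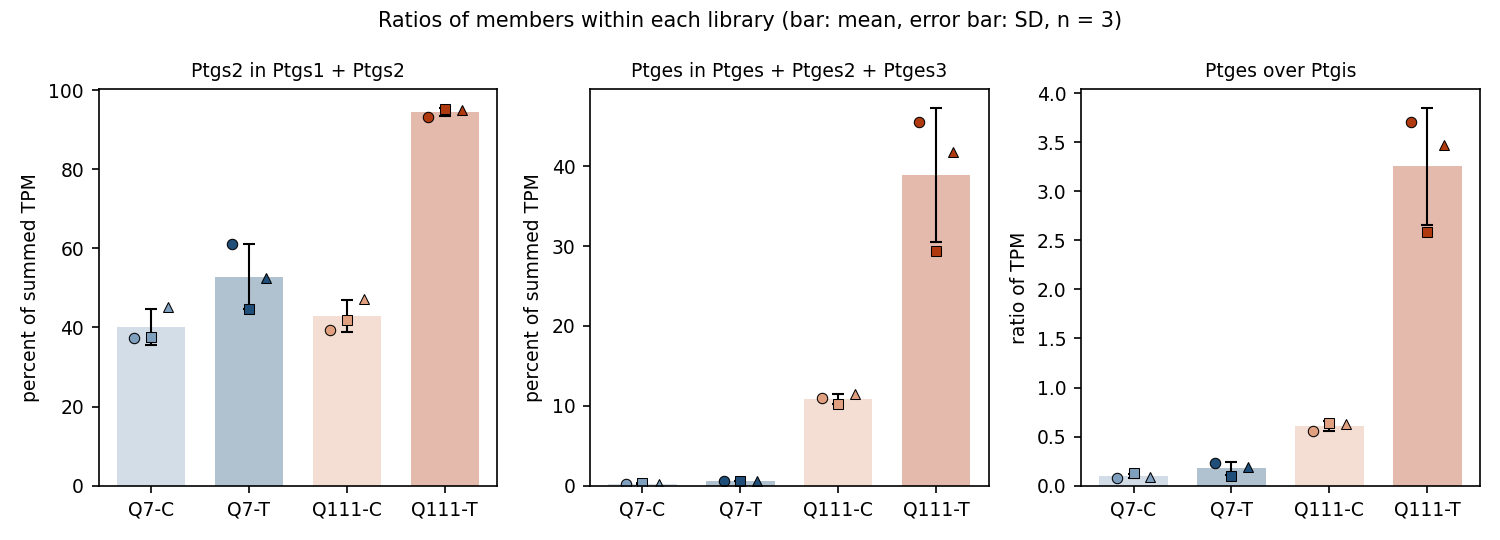
Ratios of TPM within each library for the 4 groups (bars are means, error bars SD, n = 3, points single libraries): Ptgs2 as a percent of Ptgs1 plus Ptgs2, Ptges as a percent of Ptges, Ptges2 and Ptges3, and Ptges over Ptgis. All 3 ratios were highest in Q111-T, where Ptgs2 made up 94.4% of the cyclooxygenase TPM on average.

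Of Ptges, Ptgis and Ptgds, the terminal synthases among the genes followed here, Ptges, the inducible PGE2 synthase, differed most between the lines. It read 0.453, 0.645 and 0.447 TPM in Q7-C, 1.67, 0.903 and 1.39 TPM in Q7-T, 19.4, 19.5 and 22.3 TPM in Q111-C, and 140, 90.0 and 123 TPM in Q111-T. The 4 groups did not overlap, in the order Q7-C, Q7-T, Q111-C, Q111-T. Nontreated STHdhQ111 cells held 39.6 ± 9.21-fold more than nontreated STHdhQ7 cells, an edgeR log2 fold change of 4.96 ± 0.20 (adjusted p = 1.01e-07), and after treatment the difference was 6.08 ± 0.21 (edgeR adjusted p = 2.78e-08). The nontreated level of Ptges thus already set the lines apart, which that of Ptgs2 did not.

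Ptges rose on treatment in both lines. The edgeR log2 fold change was 2.62 ± 0.18 in STHdhQ111 cells (adjusted p = 1.49e-06) and 1.49 ± 0.18 in STHdhQ7 cells (adjusted p = 2.81e-04), where its level stayed low. The STHdhQ7 call was lost with only the STHdhQ7 libraries in the fit (1.5 ± 0.31, edgeR adjusted p = 0.0697), on the log2(TPM + 0.5) scale (0.83, limma adjusted p = 0.0685) and on the log2(TPM + 1) scale (0.60, limma adjusted p = 0.157). The responses differed by 1.13 ± 0.24 (edgeR interaction, adjusted p = 0.0197). This call was lost without any one of Q7-C replicate 2, Q7-T replicate 3, Q111-C replicates 1 and 2 and Q111-T replicates 1 and 3, with values of 0.99 to 1.11 and adjusted p of 0.0532 to 0.071, and on the log2(TPM + 0.1) scale (1.32, limma adjusted p = 0.0707). Of the summed TPM of the PGE2 synthases Ptges, Ptges2 and Ptges3, Ptges made up 0.234 ± 0.0489% in nontreated and 0.597 ± 0.0361% in treated STHdhQ7 cells, and 10.9 ± 0.652% in nontreated and 38.9 ± 8.40% in treated STHdhQ111 cells (mean ± SD, n = 3).

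Ptgis, the prostacyclin synthase, differed between the lines and met no call on treatment. It read 5.69, 5.10 and 4.86 TPM in Q7-C, 7.11, 9.13 and 7.23 TPM in Q7-T, 34.9, 30.5 and 35.3 TPM in Q111-C, and 37.7, 34.9 and 35.4 TPM in Q111-T. Every STHdhQ111 library was above every STHdhQ7 library, Q111-T overlapped Q111-C, and all Q7-T libraries lay above all Q7-C libraries. Ptgis was higher in STHdhQ111 cells by 2.33 ± 0.30 without treatment (edgeR log2 fold change, adjusted p = 1.67e-04) and by 1.71 ± 0.29 after it (edgeR adjusted p = 9.20e-04). On treatment it gave 0.20 ± 0.29 in STHdhQ111 cells (edgeR adjusted p = 0.72) and 0.83 ± 0.29 in STHdhQ7 cells (edgeR adjusted p = 0.163). The STHdhQ7 value was 0.39 without Q7-T replicate 2 and up to 1.08 without Q7-C replicate 1, called in no alternative, and mean TPM was 1.5 ± 0.25-fold higher in Q7-T (exact two-sided permutation p = 0.1, the smallest possible). As Ptges rose and Ptgis was not called, the ratio of Ptges to Ptgis went from 0.554 to 0.638 in Q111-C to 2.58 to 3.71 in Q111-T, so the synthase with the higher TPM was Ptgis in the former and Ptges in the latter.

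Ptgds, the PGD2 synthase of brain and meninges, was low throughout. It read 1.27, 1.27 and 0.948 TPM in Q7-C, 0.316, 1.25 and 0.400 TPM in Q7-T, 0.462, 0.413 and 0 TPM in Q111-C, and 0, 0.179 and 0 TPM in Q111-T. The STHdhQ111 libraries lay below the STHdhQ7 libraries of the same treatment, and Q7-T replicate 2 lay within the Q7-C range, above the other Q7-T libraries. No comparison passed edgeR's test (log2 fold change -2.35 ± 1.33, adjusted p = 0.252 without treatment, and -3.82 ± 1.49, adjusted p = 0.0637 after it). The nontreated difference was called in 1 of 23 alternatives, limma on log2(TPM + 0.5) (-1.12, adjusted p = 0.0273). The treated difference rests on 33 against 3 read pairs in all, a ratio of 11.4 (exact 95% interval 3.57 to 58.0). Q7-T replicate 2 held 82 counts against 17 and 34 in the other Q7-T libraries, and Q111-T replicate 2 held all 11 counts of Q111-T. The edgeR value ran from -8.88 without Q111-T replicate 2 to -2.47 without Q7-T replicate 2, and was -3.17 and -3.23 without Q111-T replicates 1 and 3. The treated difference was called in 6 of 23 alternatives: by DESeq2 (adjusted p = 0.0257), by limma on log2(TPM + 0.1) (adjusted p = 0.031), by edgeR on counts divided by 4 (adjusted p = 0.0406) or with the replicate number as a block (adjusted p = 0.0416), and by edgeR without Q111-C replicate 3 (-3.79, adjusted p = 0.039) or Q111-T replicate 2 (adjusted p = 0.0201, with Q111-T then at 0).

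Hpgd, which inactivates prostaglandins, was well above 0 in 1 group. It read 7.94, 11.0 and 7.80 TPM in Q111-C, 0.118, 0.319 and 0 TPM in Q7-C, 0.145, 0.112 and 0 TPM in Q7-T, and 0.0654, 0.0715 and 0 TPM in Q111-T. Only the Q111-C libraries exceeded 1 TPM, and the other groups overlapped near 0. In read pairs, Q111-C held 391 against 7 in Q7-C, a ratio of 51.6 (exact 95% interval 24.8 to 129) at the depth of these libraries, and edgeR gave a log2 fold change of 5.59 ± 1.20 (adjusted p = 0.0054). Of the Q7-C counts, Q7-C replicate 2 held 20 and replicate 1 held 8, and the edgeR value was 6.70 without replicate 2 (adjusted p = 0.0112) and 5.00 without replicate 3, which was at 0 (adjusted p = 0.00955).

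On treatment Hpgd fell in STHdhQ111 cells. Against the 391 read pairs of Q111-C, Q111-T held 2, a ratio of 170 (95% interval 46.6 to 1405, counting error only), with an edgeR log2 fold change of -7.36 ± 1.35 (adjusted p = 0.00253) whose size depends on the prior count. In bulk RNA, fewer cells that express a gene and less RNA per cell cannot be told apart. The summed mesenchymal markers were also lower in Q111-T, at 1550 to 1660 TPM against 3630 to 3780 TPM in Q111-C, and their part in this result was not tested. The edgeR interaction was -6.84 ± 1.77 (adjusted p = 0.0453), again of a size that depends on the prior count, with Hpgd near 0 in both STHdhQ7 groups. It stayed past the threshold without Q7-C replicate 3 or Q7-T replicate 3, and was lost without any one of the other 10 libraries, with values of -7.94 to -6.16 and adjusted p of 0.0525 to 0.104. With no filter on low values, which Hpgd had passed only through Q111-C, the interaction was lost (edgeR adjusted p = 0.0612) and the calls against Q7-C (adjusted p = 0.00656) and on treatment in STHdhQ111 cells (adjusted p = 0.00277) were kept.

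Of the PGE2 receptors EP4 and EP2, Ptger4 was below 1 TPM in every library. Ptger4 read 0.481, 0.616 and 0.684 TPM in Q7-C, 0.887, 0.0747 and 0.538 TPM in Q7-T, 0, 0.0600 and 0.199 TPM in Q111-C, and 0.219, 0.163 and 0.258 TPM in Q111-T. Q111-C lay below Q7-C with no overlap, and Q7-T spread from near the Q111-C levels to above the Q7-C range, with replicate 2 the lowest of the Q7-T libraries. In read pairs, Q7-C held 118 against 16 in Q111-C, a ratio of 7.99 (95% interval 4.72 to 14.4), and edgeR gave a log2 fold change of -3.07 ± 0.99 (adjusted p = 0.0453). This call held in 9 of 22 alternatives. It was lost with no filter on low values (edgeR adjusted p = 0.0683), and without any one of the 3 Q7-C libraries, Q7-T replicate 3, Q111-C replicate 2 or the 3 Q111-T libraries, with values of -3.07 to -2.83 and adjusted p of 0.0572 to 0.156. The losses also included limma on log2(TPM + 1), where the value was -0.56 and so under 2-fold. Among the fits that kept it, the value was -4.54 without Q111-C replicate 3 and -2.47 without Q111-C replicate 1. No other comparison of Ptger4 was called, and treatment gave 1.38 ± 0.96 in STHdhQ111 cells (edgeR adjusted p = 0.394).

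Ptger2 was listed at 0 in all Q7-C and Q111-C libraries and at most at 0.0212 TPM in the others. The row held 4 counts in Q7-T and 6 in Q111-T, about 1 and 1.5 read pairs, which allows no fold. Its row names a single transcript, a retained intron in the annotation, so coding Ptger2 RNA was not measured by it.

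**Figure D3:**
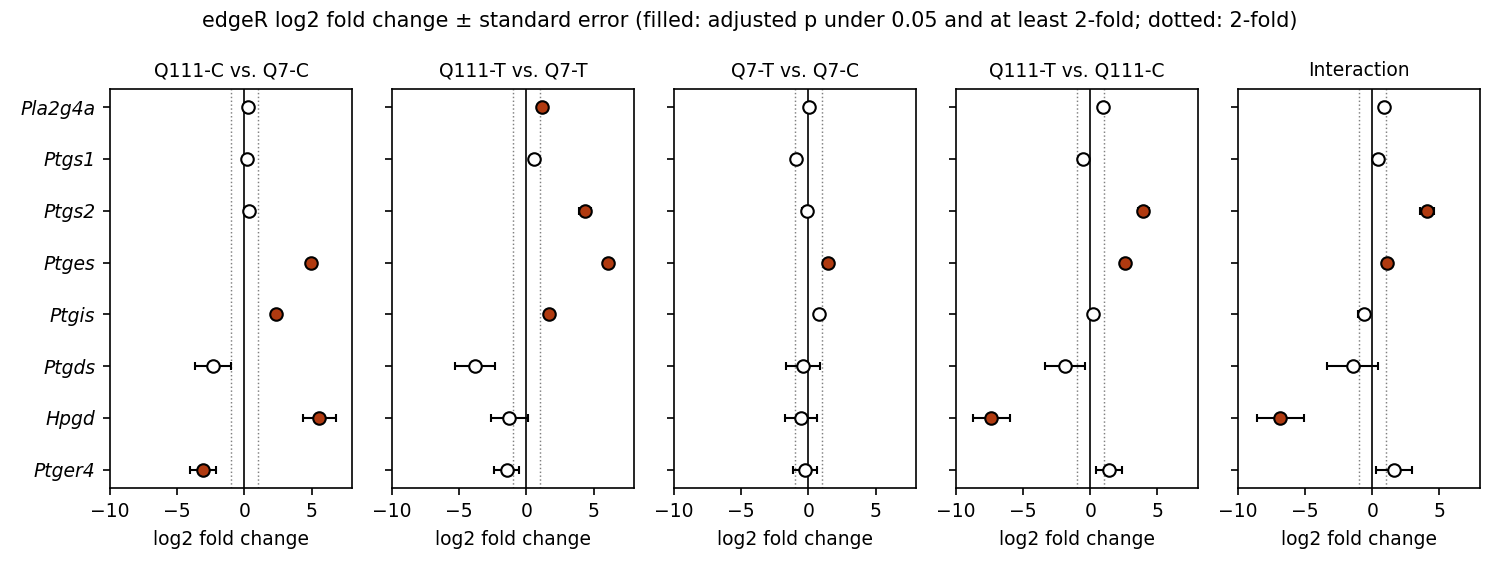
edgeR log2 fold changes with standard errors (x axis) of the 8 genes tested (rows) in the 4 pairwise comparisons and the interaction; filled points passed an adjusted p of 0.05 and 2-fold, dotted lines mark 2-fold. Ptges is filled in all 5 panels, Ptgs2 in the 3 panels that involve treated STHdhQ111 cells.

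Read across the 8 genes tested, nontreated STHdhQ111 cells had 3 genes higher (Ptges, Hpgd, Ptgis) and 1 lower (Ptger4) than STHdhQ7 cells, against 7.62% higher and 7.61% lower of all 16127 genes. After treatment edgeR called 4 higher (Ptges, Ptgs2, Ptgis, Pla2g4a) and 0 lower, against 13.3% and 11.2% of all genes. Of the lower values 1 had an unadjusted p under 0.05 (Ptgds), and DESeq2 called 1, the same gene. On treatment, edgeR called 1 higher (Ptges) and 0 lower in STHdhQ7 cells, against 2.93% and 1.11%. There 1 lower value had an unadjusted p under 0.05 (Ptgs1), and DESeq2 called 0. In STHdhQ111 cells 2 were higher (Ptgs2, Ptges) and 1 lower (Hpgd), against 8.28% and 2.96%. The interaction called 2 genes higher and 1 lower, against 3.52% and 1.2%. The median log2 fold change of the 8 genes was 0.30, 0.88, -0.17, 0.57 and 0.66 in these 5 comparisons, and that of all genes lay between -0.0294 and 0.00328. On the TPM scale the median of all genes was shifted by 0.27 and 0.34 in the comparisons of lines and by -0.16 and -0.10 in those of treatment (log2(TPM + 0.5)), so TPM ratios near 1 are to be read beside that shift.

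Other genes of eicosanoid metabolism, a list of 49 names, gave 45 rows in the table, of which 29 were tested and 13 called in some comparison. The share of all genes called in some comparison was not computed, so the count of 13 is a description and nothing more. STHdhQ111 cells had 6 higher and 2 lower without treatment (27.6% called, against 15.2% of all genes tested) and 7 higher and 1 lower after it (27.6%, near the 24.5% of all genes). On treatment, 2 were called in STHdhQ7 cells, both of them lower (6.9% against 4.04%), and in STHdhQ111 cells 5 rose and 3 fell (27.6% against 11.2%). The interaction called 1 (3.45% against 4.71%). Of the called genes, Ptgfr, Slco2a1, Ptgr2 and Alox12 passed the filter on low values only through STHdhQ111 libraries. Akr1c18 passed it only through STHdhQ7 libraries, and Ltb4r1 only with its Q111-T libraries. Counts and shares over this list are thus also a description and nothing more. The list's median log2 fold change lay between -0.14 and 0.19 in all 5 comparisons.

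Removal and uptake genes were among them. Slco2a1, the prostaglandin transporter that takes up PGE2, was at 0.0377 to 0.191 TPM in STHdhQ7 libraries, 1.61 to 1.97 TPM in Q111-C and 2.55 to 4.51 TPM in Q111-T, and rose on treatment in STHdhQ111 cells (edgeR log2 fold change 1.16 ± 0.30, adjusted p = 0.0176). Abcc4, an exporter of prostaglandins, was at 8.01 to 8.93 TPM in Q111-C and 16.7 to 24.1 TPM in Q111-T (edgeR 1.42 ± 0.19, adjusted p = 2.87e-04), and it alone of the 29 was called in the interaction (1.03 ± 0.27, adjusted p = 0.0447). Ptgr2, a reductase of 15-keto prostaglandins, the products of Hpgd, was at 0.109 to 0.442 TPM in STHdhQ7 libraries and 5.25 to 6.91 TPM in STHdhQ111 libraries. In Q111-T, where Hpgd was near 0, Ptgr2 was at 5.57 to 6.91 TPM. Ptgr1 and Zadh2, from the same removal part of the list, were not called in any comparison. Their group means were 111 to 152 TPM for Ptgr1 and 14.2 to 27.0 TPM for Zadh2.

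Of the 9 other receptor genes on the list, 5 were tested and 3 were called in some comparison, a count without a matching share over all genes. Ptgfr, the receptor of PGF2α, was at 0.0273 to 0.0942 TPM in all STHdhQ7 libraries, 5.72 to 7.48 TPM in Q111-C and 2.17 to 3.35 TPM in Q111-T, higher in STHdhQ111 cells without treatment (edgeR 6.29 ± 0.54, adjusted p = 7.92e-06) and after it (4.76 ± 0.50, adjusted p = 3.12e-05). Ptger1, the EP1 receptor of PGE2, fell on treatment in STHdhQ111 cells from 3.38 to 3.82 TPM to 1.00 to 1.61 TPM (edgeR -1.26 ± 0.37, adjusted p = 0.0356). Without treatment it was higher in STHdhQ111 cells (edgeR 1.30 ± 0.37, adjusted p = 0.0259) and gave -0.26 ± 0.37 between treated lines (edgeR adjusted p = 0.604). Pparg, a nuclear receptor that binds PGD2 derivatives, fell in both lines, by 2.08 in STHdhQ111 cells (edgeR log2 scale, adjusted p = 1.95e-05) and by 1.18 in STHdhQ7 cells (edgeR adjusted p = 0.00302), and its nontreated level was higher in STHdhQ111 cells (edgeR 1.55 ± 0.19, adjusted p = 1.34e-04). Ptgir, the prostacyclin receptor, was not called in any comparison (edgeR 1.73 ± 0.78, adjusted p = 0.146 between nontreated and 1.94 ± 0.78, adjusted p = 0.0692 between treated lines), nor was Ptgfrn, the gene of a protein that binds the PGF2α receptor.

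Of the further called genes, the phospholipases Pla2g4c (edgeR 1.56 ± 0.42) and Pla2g12a (1.17 ± 0.26) rose on treatment in STHdhQ111 cells. Pla2g12a was lower in Q111-C than in Q7-C (edgeR -1.28 ± 0.26, adjusted p = 0.00343) and was not called between treated lines, at 14.7 TPM in Q111-T against 13.1 TPM in Q7-T on average. Pla2g7, which breaks down platelet-activating factor, fell in both lines (-1.27 and -1.13). Ltb4r1, the leukotriene B4 receptor, was at 0 to 0.149 TPM in Q111-C and 3.19 to 4.65 TPM in Q111-T, and was called by edgeR (adjusted p = 0.00317) with a fitted size that depends on the prior count. Akr1c18, a reductase of the steroid and prostaglandin F pathways, was at 1.48 to 2.03 TPM in STHdhQ7 libraries and listed at 0 in all 6 STHdhQ111 libraries. Cbr1, a carbonyl reductase that can act on PGE2, was 50.8 ± 2.07 TPM in Q111-C against 16.3 ± 1.57 TPM in Q7-C (mean ± SD, n = 3). Alox12, of the lipoxygenase branch, was called between treated lines only, higher in STHdhQ111 cells (edgeR 1.92 ± 0.52, adjusted p = 0.0134).

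**Figure D4:**
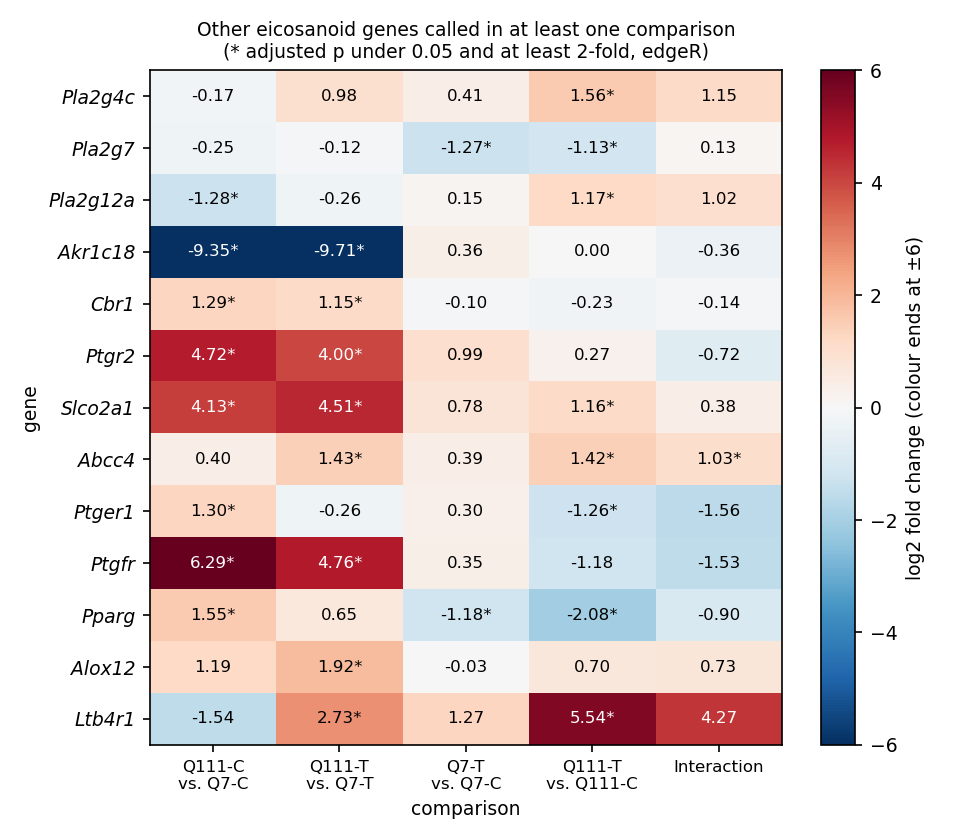
edgeR log2 fold changes (colour and numbers, colour scale ending at 6) of the 13 other eicosanoid genes called in some comparison (rows) in the 5 comparisons (columns); a star marks an adjusted p under 0.05 with at least 2-fold. Slco2a1, Ptgr2, Ptgfr and Cbr1, higher in STHdhQ111 cells, and Akr1c18, lower in them, are starred in both comparisons of lines. The values of Akr1c18, at 0 in all STHdhQ111 libraries, and of Ltb4r1 against Q111-C depend on the prior count.

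Genes with the most similar pattern were sought among all genes tested, by Pearson's r of log2(TPM + 0.5) over the 12 libraries, which share lines, treatments and depth. Nearest to Ptgs2 were Zfp874a, Dffb, Pmaip1, Ccng1 and Polk, with r from 0.985 to 0.989. Pmaip1, which encodes the pro-apoptotic protein Noxa, had mean levels of 9.23, 7.24, 8.73 and 207 TPM in Q7-C, Q7-T, Q111-C and Q111-T. Ccng1, the gene of cyclin G1, had 90.7, 101.1, 105 and 720 TPM in the same order, so both were far higher in Q111-T than in the other groups.

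Nearest to Ptges were Lgals9, Abcg1, Birc3, Slco2a1 and Irx2, with r from 0.990 to 0.996. Lgals9, the gene of galectin-9, had mean levels of 2.86, 5.37, 64.0 and 263 TPM in Q7-C, Q7-T, Q111-C and Q111-T, the same order of groups as Ptges. The transporter Slco2a1 is thus both in the pathway list and among the 5 genes most like Ptges, and r here describes libraries of few groups rather than independent samples. The single nearest genes to the others were Mastl for Pla2g4a (r = 0.994), Arf2 for Ptgs1 (0.981), Sbsn for Ptgis (0.994), H2ac6 for Ptgds (0.980), Col15a1 for Hpgd (0.992) and Zbtb18 for Ptger4 (0.965).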

How the data were processed

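RNA-seq was done on 12 libraries. According to the methods of the study and its processing notes, stranded poly(A) libraries were sequenced from both ends, reads were trimmed with Cutadapt and mapped with HISAT2 to GRCm38, and StringTie estimated expression. The authors deposited TPM values for each gene and library. The authors also deposited estimated counts as whole numbers, without normalization. TPM sums to between 688352 and 719623 per library. At about 4 counts per read pair, libraries hold 14376498 to 24104458 pairs. Of 29428 genes, 26588 have the same span in GENCODE M21 (GRCm38).

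The rounded counts were fitted with edgeR 4.0.16 (quasi-likelihood test, TMM scaling, R 4.3.3), with a mean for each group and all 12 libraries in one fit. The standard error given with an edgeR value was computed as the absolute log2 fold change over the square root of the test's F statistic. Genes had at least 0.5 TPM in at least 3 libraries. A call needed at least a 2-fold difference (a log2 fold change of 1 in either direction) and a Benjamini-Hochberg adjusted p under 0.05 over all genes tested. The procedure was tested on simulated counts. Alternatives used DESeq2 1.42.0, limma 3.58.1 on log2(TPM + 0.1, 0.5 or 1), other filters and scaling, counts divided by 4, the compared groups alone, the replicate number as a block and each library left out in turn. Ratios of few read pairs carry exact 95% intervals that cover counting error only, as reads carry no molecular identifiers. Between replicates, chi-square over its degrees of freedom was at least 4.88, so no library appears deposited more than once. The members, the gene lists and the rule for named genes (all 9 members, called genes of the pathway list, and the genes most like each member) were chosen with earlier results of these data known. Ptges2, Ptges3, Ptgir, Ptgfrn, Ptgr1 and Zadh2, called in no comparison, and Ptgs2os were named outside this rule. An item withheld here is not reported.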

Additional observations from a re-analysis of the deposited data

Results flagged for a closer look

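The response to IFNγ/LPS differed between the lines for 3 of the 8 genes tested, by edgeR's quasi-likelihood test of the difference itself, against 4.71% of all 16127 genes. For Ptgs2 the log2 fold change on treatment was 4.05 larger in STHdhQ111 than in STHdhQ7 cells, a call kept without any single library. For Ptges it was 1.13 larger, and the call held in 6 of the 12 fits with 1 library left out. For Hpgd the difference was -6.84, where both STHdhQ7 groups were near 0 and the fitted size depends on the prior count. Hpgd passed the filter only through Q111-C, the group where it was high, and its call held in 2 of the 12 fits with 1 library left out and was lost with no filter on low values (adjusted p = 0.0612).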

How the results depend on the processing

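Over the 40 log2 fold changes, 845 of 907 alternative values kept their direction and side of the threshold. The 5 counts of called genes kept their value in 77 of 114 alternatives: the count was 3 or 4 against 4 between nontreated lines (4 with limma on log2(TPM + 0.5), where Ptgds was gained and Ptger4 lost), 4 or 5 against 4 between treated lines, and 3 throughout in Q111-T vs. Q111-C. Counts moved by over 1.5 times in the other 2 comparisons. In Q7-T vs. Q7-C the count of 1 was 0 with limma on log2(TPM + 0.5), with limma on log2(TPM + 1) and with only the compared groups in the fit, and 1 to 2 with single libraries left out. The interaction count of 3 was 1 to 3 with single libraries left out, and 2 with no filter on low values (Hpgd was lost, adjusted p = 0.0612) and with limma on log2(TPM + 0.1) (Ptges was lost, adjusted p = 0.0707). The direction turned only for values that were not called: in Q7-T vs. Q7-C for Pla2g4a (-0.139, -0.145 and -0.134 with limma at pseudocounts of 0.5, 0.1 and 1, and -0.114 to 0.194 with single libraries left out), Ptgs2 (-0.515 to 0.264), Ptgds (-1.75 to 0.0114), Hpgd (-1.20 to 0.56) and Ptger4 (-0.822 to 0.227), and in the interaction for Ptgds (0.152 and 0.157 with limma at pseudocounts of 0.5 and 1). The cause was not tested. With Q7-C replicate 1 and Q7-T replicate 2 both left out, an alternative chosen after seeing the data, Ptgs2 (0.0457) and Ptger4 (0.201) turned in Q7-T vs. Q7-C, and the Hpgd interaction was no longer past the threshold (-6.13, adjusted p = 0.0682).

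Same-numbered libraries deviated together by correlations of -0.582 to 0.45, over 0.1 in 7 of 18 pairs. Differently numbered libraries of different groups did so by -0.592 to 0.644, over 0.1 in 15 of 36 pairs. The highest was Q7-C replicate 1 with Q7-T replicate 2 (0.644), and Q111-T replicate 2 correlated with them at 0.473 and 0.328. Within its group, Q111-T replicate 2 had a chi-square over its degrees of freedom of 51 and 45.5, against 9.13 for the other pair. A shared batch was not tested. With the replicate block the count was 3 against 4 between nontreated lines (Ptger4 was lost, adjusted p = 0.0568) and 5 against 4 between treated lines (Ptgds was gained, adjusted p = 0.0416), and it changed no other call. Over all genes, DESeq2 called 1303 in the interaction against 760 by edgeR, and in Q7-T vs. Q7-C the compared groups alone gave 394 and limma at a pseudocount of 1 gave 414, against 651. With both STHdhQ7 libraries left out the interaction had 1374. On the TPM scale with a pseudocount of 0.5, 1489 of 2256 calls were higher in Q111-C vs. Q7-C and 2940 of 3717 in Q111-T vs. Q7-T, against 1229 of 2456 and 2145 of 3959 by edgeR. Depth limits Hpgd, Ptgds, Ptger4 and Ptger2, which rest on few read pairs.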

Other observations

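Ptgs2os, a noncoding gene that starts just before Ptgs2 and runs away from it on the opposite strand, was looked up after the values of Ptgs2 were seen. It read 0.298, 0.532 and 0.649 TPM in Q7-C, 0.698, 0.321 and 0.378 TPM in Q7-T, 1.17, 0.953 and 1.19 TPM in Q111-C, and 3.54, 3.74 and 3.37 TPM in Q111-T. All Q111-T libraries lay above all others. It rose on treatment in STHdhQ111 cells (edgeR log2 fold change 1.79 ± 0.29, adjusted p = 0.00102), gave 0.11 ± 0.29 in STHdhQ7 cells (edgeR adjusted p = 0.912), and its response differed between lines by 1.68 ± 0.40 (edgeR interaction, adjusted p = 0.0324). Whether reads of Ptgs2 reached this row was not tested, as how the counting used strand is not given in the sources used here.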
